A study of Mus musculus with 4 samples.

Results

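Neuronal calcium sensors and calmodulin are small EF-hand proteins that bind calcium and pass the signal on to other proteins. Of the 7 genes looked for, Calm2, Calm3, Hpca, Hpcal1, Hpcal4, Ncald and Vsnl1, the array's probe table paired 5 with probe sets of their own, 9 probe sets among 45101 on the array. These were 2 probe sets of Hpca, 2 of Vsnl1, 3 of Ncald and 1 each of Hpcal1 and Hpcal4, so that all measured members belong to the hippocalcin and visinin-like branch of the neuronal calcium sensors. Calm2 and Calm3, which encode calmodulin, were not analysed here. The RNA came from the left hippocampus of wild-type mice in 4 samples, numbered 11, 13, 15 and 17 and called biological replicates by the submitters, which form a single group with 1 array each. No label gives strain, age, sex or a treatment. The deposited values are log2 intensities, a scale on which a difference of 1 is a 2-fold change of signal, and levels of different probe sets are not ranked against each other because their affinities differ. With 1 group, the questions were whether these genes were detected in the tissue and how far the 4 samples and the probe sets of a gene differed.

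Proteins of this branch carry a myristoyl group at the N terminus that is exposed when calcium binds, which moves the protein from cytosol to membrane. Hippocalcin, the product of Hpca, is abundant in hippocampal pyramidal neurons, where it has been linked to AMPA receptor endocytosis and to the slow afterhyperpolarisation. Calmodulin is the general calcium sensor of the cell and activates kinases, the phosphatase calcineurin, cyclases and calcium pumps, while the neuronal calcium sensors act on membrane receptors, channels and guanylate cyclases. Signal in whole tissue reflects both the number of cells and the RNA in each, and fewer cells of a type and less RNA per cell cannot be told apart.

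The measured genes lie on 3 chromosomes. RefSeq places Hpca and Hpcal4 on chromosome 4 with 77 protein-coding genes between them, Vsnl1 and Hpcal1 on chromosome 12 with 19 between them, and Ncald on chromosome 15. It holds 4 curated transcripts of Hpca, 2 of Vsnl1, 2 of Hpcal1, 1 of Hpcal4 and 11 of Ncald. Promoter windows were found for 4 of the 5 genes, and the 250 bases before the outermost annotated start of each are shown as the regulatory sequence of the genes described below, with the GC box, GGGCGG on either strand and the binding motif of Sp1, in capitals (GRCm38.p6 from RefSeq, 5' to 3' on the gene's strand). The windows are chr4:129121748-129121997 on the minus strand for Hpca, chr12:17690559-17690808 on the plus strand for Hpcal1, chr4:123183254-123183503 on the plus strand for Hpcal4 and chr12:11436579-11436828 on the minus strand for Vsnl1.
Hpca: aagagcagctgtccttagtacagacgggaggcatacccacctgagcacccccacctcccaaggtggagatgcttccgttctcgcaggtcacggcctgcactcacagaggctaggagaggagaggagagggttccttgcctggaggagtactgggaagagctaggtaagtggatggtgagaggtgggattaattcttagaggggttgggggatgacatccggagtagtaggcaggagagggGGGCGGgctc
Hpcal1: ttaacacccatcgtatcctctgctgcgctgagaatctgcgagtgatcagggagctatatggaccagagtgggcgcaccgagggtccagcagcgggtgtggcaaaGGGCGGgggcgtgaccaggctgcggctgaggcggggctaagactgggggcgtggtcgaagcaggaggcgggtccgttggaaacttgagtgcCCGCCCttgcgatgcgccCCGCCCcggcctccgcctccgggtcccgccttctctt
Hpcal4: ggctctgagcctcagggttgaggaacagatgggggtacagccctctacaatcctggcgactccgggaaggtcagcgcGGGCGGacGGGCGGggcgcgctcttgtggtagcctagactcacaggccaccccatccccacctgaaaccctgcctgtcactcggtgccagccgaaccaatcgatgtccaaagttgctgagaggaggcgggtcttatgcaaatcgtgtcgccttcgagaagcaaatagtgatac
Vsnl1: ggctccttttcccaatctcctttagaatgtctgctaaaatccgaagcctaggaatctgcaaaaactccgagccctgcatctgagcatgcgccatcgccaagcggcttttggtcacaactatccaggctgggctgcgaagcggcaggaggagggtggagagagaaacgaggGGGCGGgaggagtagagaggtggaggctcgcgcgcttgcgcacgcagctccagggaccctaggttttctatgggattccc

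Each of these 4 windows held at least 1 GC box, with 1 in Hpca, 3 in Hpcal1, 2 in Hpcal4 and 1 in Vsnl1. Of all 32851 windows of this length that were counted, 32.7% held one. The counted windows leave out 1 chromosome, for this share and for the median and shares below. Their GC content was 58.8% for Hpca, 66.8% for Hpcal1, 60.4% for Hpcal4 and 58.0% for Vsnl1, against a median of 52.4%. None of the 4 held TATAAA on either strand, which was present in 12.4% of all windows, or the cyclic AMP response element TGACGTCA, present in 1.55%. CCAAT was found in the windows of Hpcal4 and Vsnl1 and in 33.9% of all. The table gives Hpca 2 further starts, with 2 GC boxes and none, and Vsnl1 1 further start without any. These are letter matches only, and the array does not read promoters.

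All 5 genes were detected. A gene counted as detected above 6.84, a limit set at the 95th percentile of 29 genes of tissues outside the brain, and 39.0% of 18194 genes lay above it. The brightest probe set of every member lay at least 2.36 above the limit on the log2 scale, and 8 of the 9 probe sets passed. The calls were made on means, and all 5 genes were also above the limit at the 90th and 99th percentile and with any sample left out.

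Hpca was measured by 2 probe sets that gave different accounts of the same samples. Probe set 1450930_at read 11.70, 11.76, 11.71 and 11.65 in samples 11, 13, 15 and 17, with a mean of 11.71 ± 0.047 (SD, n = 4). By this probe set the samples lay within a 1.08-fold span. Probe set 1425833_a_at read 8.75, 9.20, 6.74 and 5.15 in the same samples, with a mean of 7.46 ± 1.88. Samples 11 and 13 were high and over the background limit, while samples 15 and 17 lay under it, so that their values are bounds and sample 13 was at least 5.12-fold higher than both. This probe set passed the limit on its mean through samples 11 and 13. Its SD was the largest of all 9995 probe sets above background as deposited and ranked 6 with every value under the limit set to the limit, a comparison added after the values were seen, while that of 1450930_at was larger than in 21.2% of them. By SD, 1425833_a_at ranked 3 without sample 11, 4 without sample 17 and 2 with no filter on dim probe sets.

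**Figure D1:**
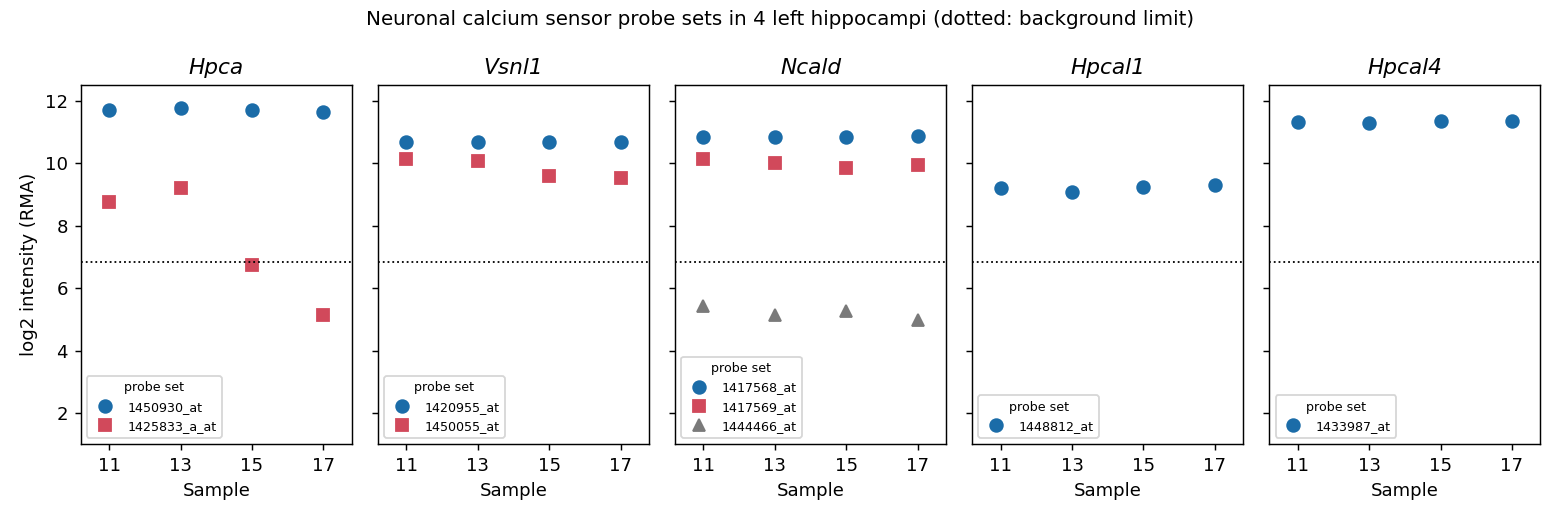
Log2 intensity (vertical axis) of the 9 probe sets of Hpca, Vsnl1, Ncald, Hpcal1 and Hpcal4 in samples 11, 13, 15 and 17, with 1 point per array, 1 panel per gene and the background limit of 6.84 as a dotted line. The brightest probe set of each gene spans at most 0.25 (Hpcal1), and Hpca 1425833_a_at lies between 9.20 (sample 13) and 5.15 (17), with samples 15 and 17 under the limit.

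Vsnl1 encodes VILIP-1, which acts on guanylate cyclase and on the surface level of nicotinic receptors and is released from injured neurons. Its probe set 1420955_at read 10.67 in samples 11, 15 and 17, where the deposited values are equal, and 10.66 in sample 13, with a mean of 10.67 ± 0.0077. Among probe sets above background, 6.01% had the same value in 3 or more samples, which lowers their SD. The other Vsnl1 probe set, 1450055_at, read 10.13, 10.07, 9.60 and 9.52 in samples 11, 13, 15 and 17, with a mean of 9.83 ± 0.32. Samples 11 and 13 were again the high ones and samples 15 and 17 the low ones, over a 1.53-fold span, and 97.5% of probe sets had a smaller SD.

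Ncald encodes neurocalcin delta, a sensor that activates membrane guanylate cyclases. Probe set 1417568_at read 10.84 in sample 11, 10.82 in samples 13 and 15 and 10.86 in sample 17, a mean of 10.83 ± 0.017. Probe set 1417569_at read 10.13, 9.99, 9.83 and 9.93 in samples 11, 13, 15 and 17, a mean of 9.97 ± 0.13. Sample 11 was highest and sample 15 lowest by this probe set, a 1.23-fold span. The third probe set, 1444466_at, lay under background at 5.20 ± 0.19, with values from 4.97 in sample 17 to 5.41 in sample 11.

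Hpcal1 and Hpcal4, which encode VILIP-3 and VILIP-2, were each read by 1 probe set. Hpcal1 stood at 9.20, 9.06, 9.24 and 9.31 in samples 11, 13, 15 and 17, a mean of 9.20 ± 0.11 and a 1.19-fold span. Sample 13 was the low one. Hpcal4, whose protein modulates presynaptic calcium channels, stood at 11.31, 11.29, 11.35 and 11.34 in the same order, a mean of 11.32 ± 0.028. All 4 samples lay within a 1.04-fold span, and only 9.64% of probe sets had a smaller SD.

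The brightest probe sets of the members showed no order of the samples in common. Sample 13 was lowest for Hpcal1, Hpcal4 and Vsnl1, shared the lowest place with sample 15 for Ncald, and was highest for Hpca, where 18.3% of all genes above background were lowest in sample 13 and 18.2% highest. Of the 5 genes 0 were lowest in sample 11, where 47.9% of all genes above background were lowest. The median deviation of the 5 from their own means was -0.0010, -0.013, 0.0038 and 0.022 in samples 11, 13, 15 and 17, against -0.045, -0.0037, 0.017 and 0.031 over all genes above background. With each array centred on its median the lowest of the members' medians moved from sample 13 to sample 11, at -0.018, and their span between samples from 0.035 to 0.063. With the median over all probe sets of a gene in place of the brightest, sample 11 was highest at 0.082 and sample 15 lowest at -0.077, and the median changed sign in all 4 samples.

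**Figure D2:**
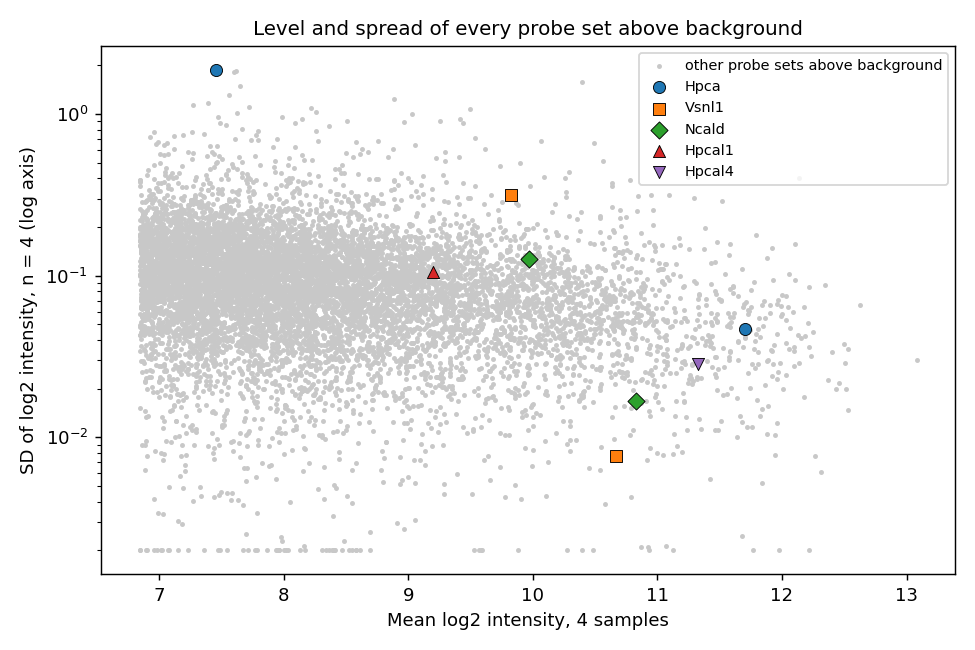
Mean log2 intensity over 4 samples (horizontal axis) and its SD (vertical log axis, n = 4) for the 9995 probe sets above background in grey, with SDs under 0.002 drawn at 0.002, and the 8 member probe sets as coloured symbols. Hpca 1425833_a_at, under the limit in samples 15 and 17, is the highest point at 1.88, and Vsnl1 1420955_at, at 0.0077, lies near the lower edge.

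No member passed the test of its spread between samples. The limma test of the residual variance against the fitted prior variance, with Benjamini-Hochberg adjustment, called 0% of 9995 probe sets, with a smallest adjusted p of 0.893. The unadjusted p was under 0.05 for 300 probe sets, where 500 were due by chance, and a fit without trend and robust prior also called 0, with 192 unadjusted. Hpca 1425833_a_at had an unadjusted p of 0.00103 and an adjusted p of 0.893 in limma, and Vsnl1 1450055_at had 0.024 and 0.893. The Hpca test took the values under the limit in samples 15 and 17 as deposited. That probe set passed the filter on its mean through samples 11 and 13. Over the alternatives the smallest adjusted p of any member lay between 0.730 and 0.935. With 4 arrays and variances that differ this much between probe sets, the fitted prior had only 2.29 degrees of freedom, and a count of 0 does not show that the samples were alike.

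For the genes with more than 1 probe set above background, the difference between the brightest and the other was compared over the samples. For Hpca it was 2.95, 2.56, 4.96 and 6.50 in samples 11, 13, 15 and 17. Its range of 3.94 was the largest of 2893 pairs of probe sets of a gene with both means above background, where the median range was 0.21, but it rests on the values of the dimmer set in samples 15 and 17 that lie under the limit. With such values set to the limit in all pairs, the Hpca range was 2.30, or 4.93-fold, and ranked 5. As deposited it was the largest with each sample left out in turn, and stood at 2.40 without sample 17. For Vsnl1 the difference was 0.54, 0.59, 1.08 and 1.16 in samples 11, 13, 15 and 17, a range of 0.61 that 8.88% of pairs reached. For Ncald it was 0.70, 0.83, 0.99 and 0.92, a range of 0.29 that 33.8% of pairs reached, and 0.16 without sample 11. A range past 1, which is 2-fold, was found in 3.32% of all pairs and in 1 of the 3 member pairs, and this limit was set after the values were seen.

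The RNA controls of the array differed between the same samples. The 3' minus 5' difference of Gapdh, which reads how much signal the 5' end of a transcript gives compared with the 3' end, was 0.62, 0.62, 2.64 and 3.79 in samples 11, 13, 15 and 17. For Actb it was 1.10, 1.25, 1.93 and 2.33. Samples 15 and 17 were thus high in the controls and in the Hpca, Vsnl1 and Ncald differences, where the Ncald range was only 0.29. With the Gapdh difference as a covariate, the residual SD of Hpca 1425833_a_at was 0.25 in place of 1.88, and that of Vsnl1 1450055_at was 0.084 in place of 0.32, over the same 4 arrays. That of Ncald 1417569_at was 0.11 in place of 0.13, and that of Hpcal1 0.067 in place of 0.11. For Hpca 1450930_at it was 0.033 in place of 0.047, and for Hpcal4 0.016 in place of 0.028. For Ncald 1417568_at it stayed at 0.017, and for Vsnl1 1420955_at it was 0.0078 in place of 0.0077. This fit places an intercept and a slope on 4 arrays, and 1425833_a_at lies under the limit in samples 15 and 17. The fall over all probe sets is not given here, so the size of these falls cannot be judged against it. Between samples 11 and 13 alone, with equal Gapdh differences to 2 decimals, the range was 0.39 for Hpca, rank 72 among 3201 pairs. It was 0.047 for Vsnl1 and 0.13 for Ncald. A range over 2 arrays cannot exceed the range over 4, and no other 2 arrays were compared in this way. Where the probes of each set lie along the transcripts was not known here, and the part of 5' signal in the members' values was not tested.

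**Figure D3:**
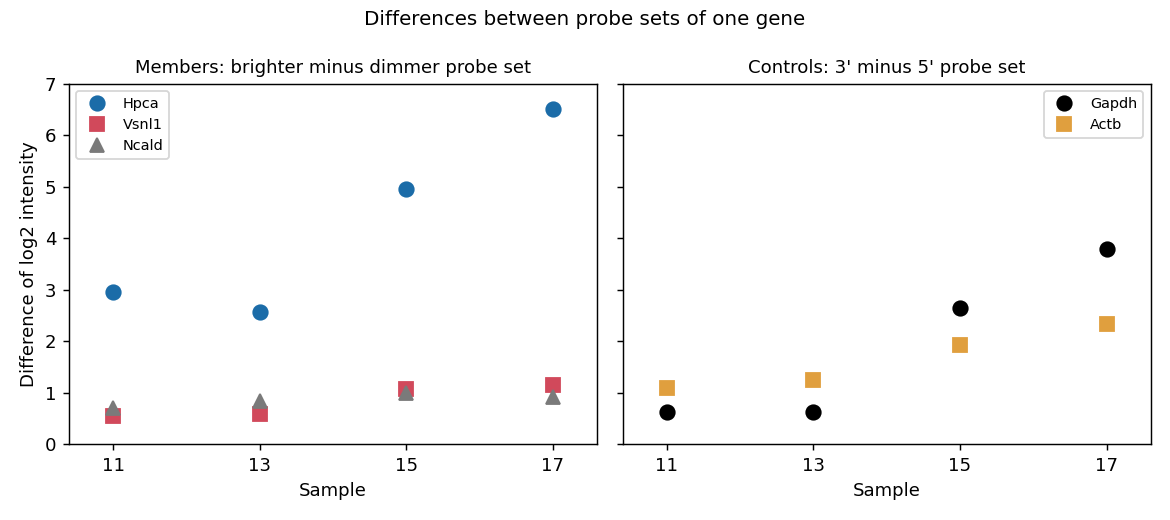
Difference of log2 intensity in samples 11, 13, 15 and 17, with 1 point per array: on the left the brighter minus the dimmer probe set of Hpca, Vsnl1 and Ncald (1417568_at minus 1417569_at), on the right the 3' minus 5' control probe sets of Gapdh and Actb. Hpca lies between 2.56 (sample 13) and 6.50 (17), and Gapdh between 0.62 and 3.79 in the same arrays.

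Over the whole array, 88 of the 96 pairs past 2-fold had their highest difference in sample 17, and this share is not given here for all pairs. The count of pairs past 2-fold was 57 without sample 11, 88 without sample 13, 103 without sample 15 and 50 without sample 17. Without samples 15 and 17 it was 1, but a range over fewer arrays cannot be larger. No other 2 samples were left out together. Of the probe sets with an SD over 0.5, which were 0.910% of those above background and include Hpca 1425833_a_at, 80 of 91 were lowest in sample 17, compared with 16.4% of all probe sets above background.

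The probe set whose pattern over the 4 samples lay closest to Hpca 1425833_a_at was the 5' control of Gapdh, a comparison added after the values were seen that takes values under the limit as deposited. It read 11.69, 11.71, 9.67 and 8.52 in samples 11, 13, 15 and 17, and its deviations differed from those of Hpca by a root mean square of 0.306. The next were probe sets of Arpc4, a subunit of the actin-nucleating Arp2/3 complex, at 0.563, of Got2, the mitochondrial aspartate aminotransferase, at 0.567, and of Mapk8ip1, a JNK scaffold, at 0.618. For Arpc4 and Got2 another, brighter probe set had an SD of only 0.068 and 0.040, as for Hpca itself, and the Mapk8ip1 probe set was the brightest of its gene. Closest to Vsnl1 1450055_at were probe sets of the ubiquitin-conjugating enzyme Ube2d3 at 0.0146, Chtop at 0.0228, Tm9sf2 at 0.0283 and Pak1ip1 at 0.0293. Each of those 4 genes also had a brighter probe set with an SD between 0.029 and 0.043.

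**Figure D4:**
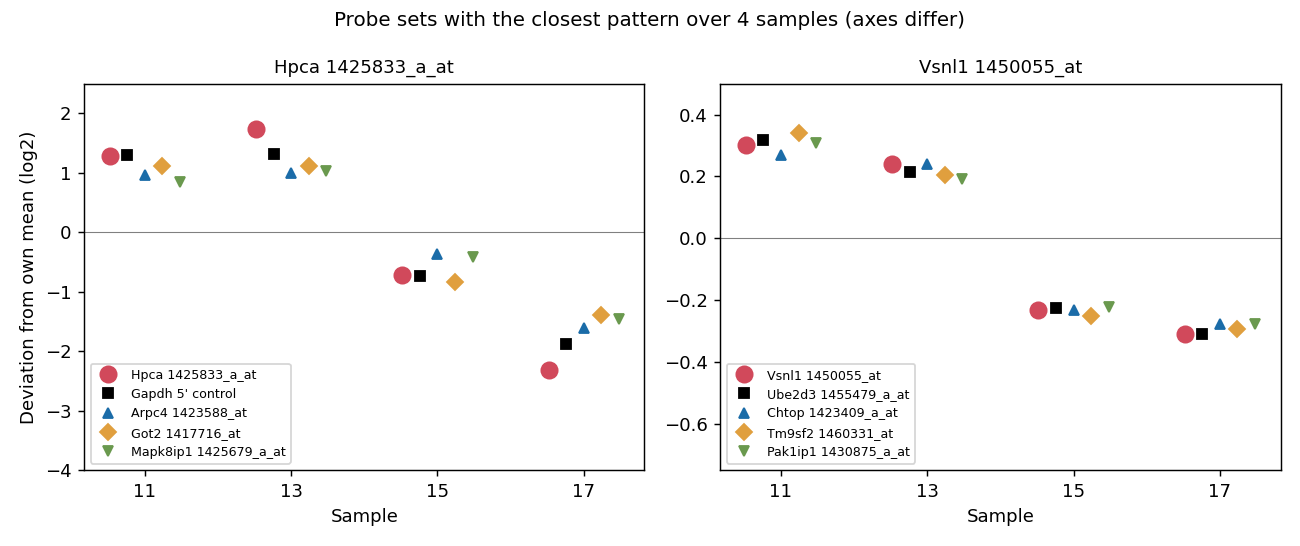
Deviation of log2 intensity from the probe set's own mean in samples 11, 13, 15 and 17, with 1 point per array, for Hpca 1425833_a_at (left) and Vsnl1 1450055_at (right) in red and the 4 probe sets closest to each by root mean square difference; the vertical axes differ. In all 10 probe sets samples 11 and 13 lie above samples 15 and 17.

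The probe sets of a gene were also tested for moving together. In 2045 genes with several probe sets above background, the variance shared by a gene's probe sets over the samples was set against the variance in which they differed (moderated with limma, Benjamini-Hochberg adjustment), and 2.05% of genes passed. Of the members 0 of 3 passed, with an adjusted p of 0.491 for Hpca, 0.535 for Vsnl1 and 0.566 for Ncald in this limma-based test. The unadjusted p values were 0.259, 0.320 and 0.363. For Hpca this test took the values of 1425833_a_at under the limit, in samples 15 and 17, as deposited. The 42 genes called over the array became 2 without sample 11, 8 without sample 13, 6 without sample 15 and 8 without sample 17, and no member was called in any of these or with the Gapdh difference as a covariate, where the smallest adjusted p of a member was 0.178.

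For the 3 members with the largest SD of the brightest probe set, the 3 genes with the closest pattern were sought among 7097 genes above background. For Hpcal1 they were the ribosomal protein gene Rpl4, Strada and the adhesion protein gene Nrcam, with root mean square differences of 0.00716, 0.00745 and 0.00799. For Hpca 1450930_at they were Maged1, Ptprn2 and Tle3, at 0.00507, 0.00599 and 0.00639. For Hpcal4 they were Mzt1, the casein kinase gene Csnk1a1 and the protein kinase C gene Prkce, at 0.00233, 0.00254 and 0.00295. With 4 samples and so many genes, near-identical patterns are easily met, and the values are a description.

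Around the members, 69 of 92 measured genes of the listed calcium sensor network, or 75%, were above background, beside 39.0% of all genes. Of the other neuronal calcium sensors 4 of 8 passed, a share near that of all genes. Ncs1, which regulates a phosphatidylinositol kinase and exocytosis, had a level of 10.71 ± 0.049, and the potassium channel subunits Kcnip2 and Kcnip3 had 10.02 ± 0.068 and 7.74 ± 0.033. Kcnip1 was just under the limit at 6.75 ± 0.018, and the other 3 under it were the retinal sensors Rcvrn, Guca1a and Guca1b, at 2.95, 3.05 and 5.23. Among calmodulin-related EF-hand proteins 3 of 9 passed, also near the share of all genes, namely Cabp1 at 7.52 ± 0.17, Cabp7 at 10.92 ± 0.096 and Caln1 at 9.80 ± 0.015, while Calml3 stood at 3.36 ± 0.12.

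The listed genes that hold or buffer calmodulin and calcium were all detected, beside 39.0% of all genes. Of 7 calmodulin-store genes 7 passed, among them the postsynaptic Nrgn at 11.57 ± 0.13, the growth cone protein Gap43 at 8.67 ± 0.20, Pcp4 at 10.58 ± 0.11 and Marcks at 9.26 ± 0.029. Nrgn read 11.43, 11.50, 11.67 and 11.71 in samples 11, 13, 15 and 17, and Gap43 8.87, 8.79, 8.57 and 8.45, each by 1 probe set. Sample 11 was thus lowest for Nrgn and highest for Gap43, and sample 17 the reverse, with neither passing the limma spread test. Of 8 calcium buffers 8 passed, with Calb1 at 9.94 ± 0.058, Calb2 at 8.42 ± 0.046, Pvalb at 9.19 ± 0.23 and S100b at 8.92 ± 0.15. Calr, the calcium store protein calreticulin, was the only one of 27 network genes tested whose probe sets moved together in the limma-based test (adjusted p 0.0386). It read 10.69, 10.88, 10.78 and 10.80 in samples 11, 13, 15 and 17. Over all 2045 genes tested 2.05% passed, and the 42 calls fell to between 2 and 8 with 1 sample left out.

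Among calmodulin's effectors, 15 of 18 kinase and phosphatase genes and 17 of 22 other targets were above background, beside 39.0% of all genes. Camk2a had a level of 11.78 ± 0.040, Camk2b 10.25 ± 0.038 and Camk2g 9.35 ± 0.021, while Camk2d, at 4.53 ± 0.089, lay under the limit. The calmodulin-stimulated cyclase Adcy1 stood at 11.41 ± 0.040, Nos1 at 8.98 ± 0.092, the phosphodiesterase Pde1a at 8.44 ± 0.078 and Adcy8 under background at 5.45 ± 0.087. Of the partners reported for neuronal calcium sensors, 15 of 20 passed. Among them were the potassium channels Kcnd2 at 9.03 ± 0.098 and Kcnd3 at 8.76 ± 0.061 and the auxiliary subunit Dpp6 at 8.60 ± 0.058. Dpp10, at 6.84 ± 0.12, was just under the limit and did not pass. In the limma spread test 0 of 109 network probe sets passed.

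Other probe sets of the network were also low in samples 15 and 17, as Hpca 1425833_a_at was. Of the network's 40 pairs, 3 had a difference moving past 2-fold, 2 of Camk2a and 1 of the GTPase gene Arf1, beside 3.32% of all pairs, and they were singled out after their values were seen. Camk2a 1437125_at read 10.44, 10.25, 9.15 and 8.14 in samples 11, 13, 15 and 17, and 1442707_at 9.90, 9.64, 8.92 and 7.68, while the brightest Camk2a probe set kept an SD of 0.040. Arf1 read 9.80, 9.71, 9.13 and 8.54 by 1420920_a_at. In all 3 cases sample 17 was lowest and sample 11 highest, where Hpca was highest in sample 13, and the ranges of the pairs were 2.22, 2.14 and 1.35.

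**Figure D5:**
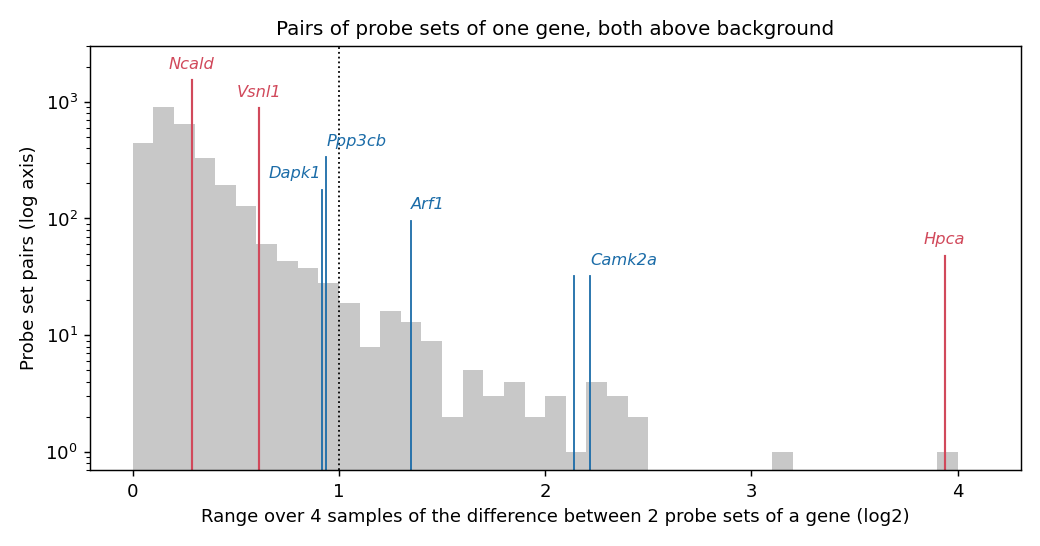
Number of probe set pairs (vertical log axis) by the range over 4 samples of the difference between the brightest and another probe set of a gene (log2, bins of 0.1), for 2893 pairs with both above background. Red lines mark Ncald at 0.29, Vsnl1 at 0.61 and Hpca at 3.94 (2.30 with values under background set to the limit), blue lines the network genes over 0.9 (Dapk1, Ppp3cb, Arf1 and 2 pairs of Camk2a, chosen after their values were seen), and the dotted line the 2-fold limit.

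Cell types were described by counts of markers above background, beside 39.0% of all genes. The counts were 5 of 6 for pyramidal and granule neurons, 6 of 6 for interneurons, 6 of 6 for astrocytes and 4 of 5 for oligodendrocytes. They were 4 of 6 for microglia, 3 of 5 for endothelium and 1 of 5 for choroid plexus. For striatum and thalamus 1 of 5 passed, for neocortex 2 of 4 and for blood 0 of 3. The neuronal marker under the limit was Prox1, at 5.76 ± 0.073, and the counts do not tell granule from pyramidal neurons. The median deviation of the oligodendrocyte markers spanned -0.21 (sample 11) to 0.40 (13), and that of the pyramidal and granule neuron markers -0.059 (17) to 0.034 (15). For microglia it spanned -0.198 (11) to 0.135 (15), and for astrocytes -0.025 (11) to 0.11 (17). The mean level over the samples lay between 10.27 and 10.79 for the oligodendrocyte markers and between 10.13 and 10.29 for the neuronal ones. Of the choroid plexus list only Ttr was above background, at 7.36, 9.84, 6.86 and 6.54 in samples 11, 13, 15 and 17. Sample 13 was thus the high one and sample 17 lay under the limit. Among the 9995 probe sets above background, those of Ttr ranked 2, 3 and 5 by SD, where Hpca 1425833_a_at ranked 1. The part of cell makeup in the members' values was not tested.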

How the data were processed

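Total RNA of 4 left hippocampi was labelled with biotin and hybridised to 1 array each, per the labels' protocols. The values, deposited as log2 intensities, came from the authors' RMA step, which the submitters' processing notes name. That method subtracts background, makes the distributions of the arrays equal and combines a set's probes into 1 value; its version and settings are not given in the sources used. The column medians lay between 4.67 and 4.71, and the number of arrays limits the precision. The samples are called biological replicates, and the labels name no animals. The p-values of the spread test set a probe set's variance over these 4 samples against a prior fitted to all probe sets tested. Those of the agreement test set the variance shared by a gene's probe sets against the scatter between them.

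The probe table paired 34958 probe sets with 1 symbol, 932 with several and 9211 with none. Symbols were updated by Entrez identifier through RefSeq (GRCm38.p6), which held 34754 of them. Each gene was represented by its brightest single-symbol probe set. The background list held 35 genes, 29 of them measured. The spread test used lmFit and eBayes with trend and robust fit and their common prior degrees of freedom. The agreement test and the pair ranges were described with their results, and both tests were checked on simulated data. Apart from planted signals, the simulated probe sets had equal variances, unlike those of the array. That check therefore does not show how often the tests would find a difference here. Members, lists and tests were chosen with earlier results of these data known. Named genes are all members, the first 4 measured genes of each list, list genes that pass a test and the closest 3 genes of 3 members; others are said to be chosen after their values were seen, or are named as members of a count. Protein identities were planned and not computed, since no protein sequences were used here. R 4.3.3, limma 3.58.1, Python 3.11.15, pandas 2.3.3 and matplotlib 3.10.9 were used. Alternatives covered the background limit, the filter, the probe set of a gene, normalization, the prior, squeezing, the Gapdh covariate, values under background set to the limit and samples left out.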

Additional observations from a re-analysis of the deposited data

Results flagged for a closer look

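In 6 of 37 values looked at, those of the 9 member probe sets and 28 listed genes, 1 sample lay apart from the other 3 by more than Dixon's 95% critical share of the range. Chance gives about 1 in 20, and equal deposited values in 2 or 3 samples make such gaps more frequent. Vsnl1 1420955_at read 10.66 in sample 13, with the others equal at 10.67, over a range of 0.0154. Kcnip1 read 6.719 in sample 11, with the others between 6.754 and 6.756. Marcks read 9.302 in sample 17, with the others between 9.239 and 9.249. Camk2a read 11.72 in sample 17, with the others at 11.8, and Camk2g read 9.385 there, with the others at 9.344. Adcy8, under background, read 5.32 in sample 11, with the others at 5.494. No other probe set of a member was set apart in this way; Hpca 1425833_a_at was not, since its values spread over the range.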

How the results depend on the processing

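All 5 member genes stayed above background, and 0 members passed either test, under every alternative run for those results. The count of genes passing the agreement test, 42, was 18 with the 90th percentile limit, 13 with no filter, 85 with arrays centred on the median, 192 with the Gapdh covariate, 12 without samples 15 and 17, and between 2 and 8 with 1 sample left out. The count of pairs past the range limit, 96, was 154 with the 90th percentile limit, 383 with no filter, 393 at a range limit of 0.5, 15 at a range limit of 2, 1 without samples 15 and 17, and between 50 and 103 with 1 sample left out. These pair alternatives were chosen after seeing the data. The span of the members' median deviations between samples, 0.035, was 0.16 with the median of all its probe sets for each gene and 0.012 to 0.035 with 1 sample left out. The cause was not tested. With arrays centred on the median the span was 0.063. The members' median deviations, which carry no test, changed sign in all 4 samples with the median over probe sets, in samples 11 and 15 with quantile normalization again, in sample 15 with arrays centred on the median and in sample 11 without sample 17. With values under background set to the limit, 75 pairs passed the range limit, and the Hpca pair ranked 5 in place of 1. Of 292 values under alternatives, 250 were counted as staying within the main value's error, 1.5 times its count or its side of the test. Some could not change, such as an SD under another background limit, so this count does not measure how stable the results are. The SD of Hpca 1425833_a_at, 0.25 with the Gapdh covariate in place of 1.88, was among the 250. So were the sign changes in samples 11 and 15 with quantile normalization again. No paired analysis was possible because the series has a single group. Signal over background limits Hpca 1425833_a_at in samples 15 and 17 and Ncald 1444466_at in all samples.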
